A study of Mus musculus with 24 samples.

Results

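The genes described here were 10 members of the bone morphogenetic protein (BMP) pathway, chosen by name: the ligands Bmp2, Bmp4, Bmp5 and Bmp7, the inhibitors of DNA binding Id1, Id2, Id3 and Id4, and the feedback inhibitors Smad6 and Bambi. They were 10 of the 22926 gene symbols in the count tables, and all 10 had one row in each table. RNA-seq had been done on clones of a mouse embryonic stem cell (ESC) line of 129/SVj origin that carries an Oct4:IRES:eGFP reporter, in which CRISPR indels had been made in the Tet genes. The clones, named as in the labels, were WT (O4.1, O4.2 and O4.13), Tet1-/- (KO_2.1, KO_2.3 and KO_2.4 at D0 and KO_2.1, KO_2.2 and KO_2.4 at D6), Tet2-/- (KO_3.10 and KO_3.11), DKO (Tet1 and Tet2; DKO_5.11 and DKO_5.12) and TKO (Tet1, Tet2 and Tet3; TKO_8.4 and TKO_8.12). At D0 the cells were undifferentiated, on gelatin without feeders in serum with LIF, a cytokine that holds ESCs in the pluripotent state, and at D6 they had been without LIF for 6 days. All clones came from the one reporter line, so a replicate was a clone and a group of 2 or 3 clones was small. Of the 24 libraries, 12 were from D0 and 12 from D6.

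BMP ligands bind pairs of type I and type II receptor kinases, which phosphorylate Smad1, Smad5 and Smad9, and these enter the nucleus with Smad4. Id genes are their best known direct targets, and Id proteins lack a DNA binding domain and sequester the E protein partners of lineage-determining bHLH factors. Smad6 and Bambi are induced by the same signal and limit it, Smad6 inside the cell and Bambi as a kinase-less receptor at the membrane. In ESCs, BMP4 together with LIF holds back neural differentiation through Id genes, and after LIF is removed BMP signalling takes part in mesoderm formation.

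The mm9 build places Bmp2 on chromosome 2 (133377895-133388621), Bmp4 on chromosome 14 (47003195-47010344), Bmp5 on chromosome 9 (75623171-75748117) and Bmp7 on chromosome 2 (172693513-172765822). Id1 lies on chromosome 2 (152561987-152563146), Id2 on chromosome 12 (25778666-25780957), Id3 on chromosome 4 (135699412-135701670) and Id4 on chromosome 13 (48356796-48359405). Smad6 lies on chromosome 9 (63800953-63869866), and the position of Bambi is not printed here. The counts are of whole transcripts and carry no information on single exons.

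TET proteins oxidise methylated cytosine, which in mammals lies mostly in CpG dinucleotides, so the CpG content of the start sites is shown for 4 of the members with a promoter in the table used here. RefSeq promoters (250 bases before to 50 after the start, build GRCm38.p6, which is not the build of the counts) were found for 6 of the 10 members, Bmp4, Bmp5, Id2, Id3, Id4 and Smad6, and for neither Bmp2, Bmp7, Id1 nor Bambi. The 4 sequences below run 5′ to 3′ on the strand of the gene, with each CpG in capitals. Bmp5 (chr9:75775115-75775414, plus strand) and Smad6 (chr9:64022010-64022309, minus strand) were both lower in Tet2-/- at D6, Id2 (chr12:25096043-25096342, minus strand) was above WT in the same cells by under 2-fold, and Id3 (chr4:136143572-136143871, plus strand) varied with Bmp5 between clones.
Bmp5: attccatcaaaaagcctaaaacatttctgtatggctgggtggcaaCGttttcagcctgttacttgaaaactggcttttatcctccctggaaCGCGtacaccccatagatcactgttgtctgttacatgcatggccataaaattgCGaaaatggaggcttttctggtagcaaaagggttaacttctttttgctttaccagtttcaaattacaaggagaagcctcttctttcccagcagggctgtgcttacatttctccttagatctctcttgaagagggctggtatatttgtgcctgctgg
Smad6: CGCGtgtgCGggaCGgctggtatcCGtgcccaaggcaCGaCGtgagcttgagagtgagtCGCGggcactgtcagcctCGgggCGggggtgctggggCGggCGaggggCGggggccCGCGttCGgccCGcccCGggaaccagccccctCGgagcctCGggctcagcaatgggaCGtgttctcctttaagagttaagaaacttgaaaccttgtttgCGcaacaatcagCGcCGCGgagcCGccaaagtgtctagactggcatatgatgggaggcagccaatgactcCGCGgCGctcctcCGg
Id2: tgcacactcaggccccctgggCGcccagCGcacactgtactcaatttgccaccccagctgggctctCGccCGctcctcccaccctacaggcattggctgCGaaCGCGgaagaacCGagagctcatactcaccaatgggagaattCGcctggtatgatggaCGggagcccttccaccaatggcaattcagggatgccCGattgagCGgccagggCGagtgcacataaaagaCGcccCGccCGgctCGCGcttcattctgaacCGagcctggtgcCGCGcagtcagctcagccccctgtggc
Id3: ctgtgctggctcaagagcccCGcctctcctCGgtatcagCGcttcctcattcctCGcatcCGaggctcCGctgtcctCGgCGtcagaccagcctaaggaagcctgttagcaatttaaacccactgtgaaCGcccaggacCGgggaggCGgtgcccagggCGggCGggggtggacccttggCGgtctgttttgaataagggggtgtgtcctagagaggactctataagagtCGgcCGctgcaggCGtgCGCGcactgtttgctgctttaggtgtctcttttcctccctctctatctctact
These windows held 4 CpGs in Bmp5, 31 in Smad6, 21 in Id2 and 19 in Id3, against a median of 7 over the 32851 promoters of the table. The 12 CpGs of Bmp4 and 39 of Id4 complete the set, so the CpG content of the members ranged from below the median to above that of 95.6% of promoters. Bmp5 and Smad6, both lower in Tet2-/- at D6, had 4 and 31, and a link of CpG content with RNA level was not tested. The GC-rich Smad element GGCGCC was present once in the Id2 window and once in that of Id4, and in 11.9% of all promoters. The Smad-binding element CAGAC, searched on both strands, occurred 2 times in the Id3 window and once in that of Bmp5, and in 49.6% of all promoters. These are matches of letters in a short window, not sites.

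Total counts were 21729346 to 37290208 at D0 and 18400463 to 34219640 at D6, and 3 counts equalled 0.0814 to 0.151 CPM (counts scaled to the library size after TMM, the unit of all levels here). Tet2 mRNA was 91.8 ± 3.40 CPM in WT at D0 (SD, n = 3) and 22.1 ± 1.62 in Tet2-/- (SD, n = 2), whereas Tet1 mRNA was 340 ± 108 in WT and 193 ± 145 in Tet1-/- (SD, n = 3 each), so for indels in Tet1 the RNA level does not check the label. Nor does that of Tet2 at D6, where it was 13.7 ± 1.98 in WT (SD, n = 3) and 16.3 ± 0.522 in Tet2-/- (SD, n = 2). At D6 WT clone O4.2 stood apart from the other two, with a summed level of 8 pluripotency markers of 1575 CPM against 761 and 932, and of 6 streak and mesoderm markers of 235 CPM against 596 and 670. Results that turn on this clone are given with and without it. A gene was called when the adjusted p of edgeR's quasi-likelihood test was under 0.05 and the difference was over 2-fold, and p-values were adjusted over all genes tested (14456 at D0, 15435 at D6 and 15639 between days).

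In WT, LIF withdrawal raised 6 of the 10 members (Bmp2, Bmp5, Bmp7, Id2, Id3 and Smad6) and lowered none, where 20.7% of all genes were called higher and 13.3% lower. The count for Tet1-/- was 4 higher and 1 lower (19.9% and 11.2% of all genes). For Tet2-/- it was 2 higher and 1 lower (12.7% and 6.44%), for DKO 3 higher and 1 lower (18.6% and 10.6%) and for TKO 3 higher and 1 lower (16.8% and 8.63%). At D6, 5 members (Bmp2, Bmp5, Bmp7, Smad6 and Bambi) were lower in Tet2-/- than in WT and none was higher, where 9.45% of all genes were called lower and 4.81% higher. Leaving out one library moved this count from 5 to between 0 (without KO_3.11) and 7 (without WT clone O4.2, when Id3 was also lower and Id4 higher), and without KO_3.10 it was 1. The median log2 difference of the 10 members from WT at D6 was -0.47 for Tet1-/-, -1.09 for Tet2-/-, -1.20 for DKO and -0.70 for TKO, where that of all genes was between -0.033 and 0.0158. With edgeR no member was called in Tet1-/-, DKO or TKO against WT at D6, and neither was any other gene (0%). At an unadjusted p under 0.05, 1, 5 and 4 members passed in these 3 comparisons (12.6%, 14.6% and 23.5% of all genes), and DESeq2 called 0, 2 and 2 (0.285%, 1.20% and 3.05%).

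**Figure D1:**
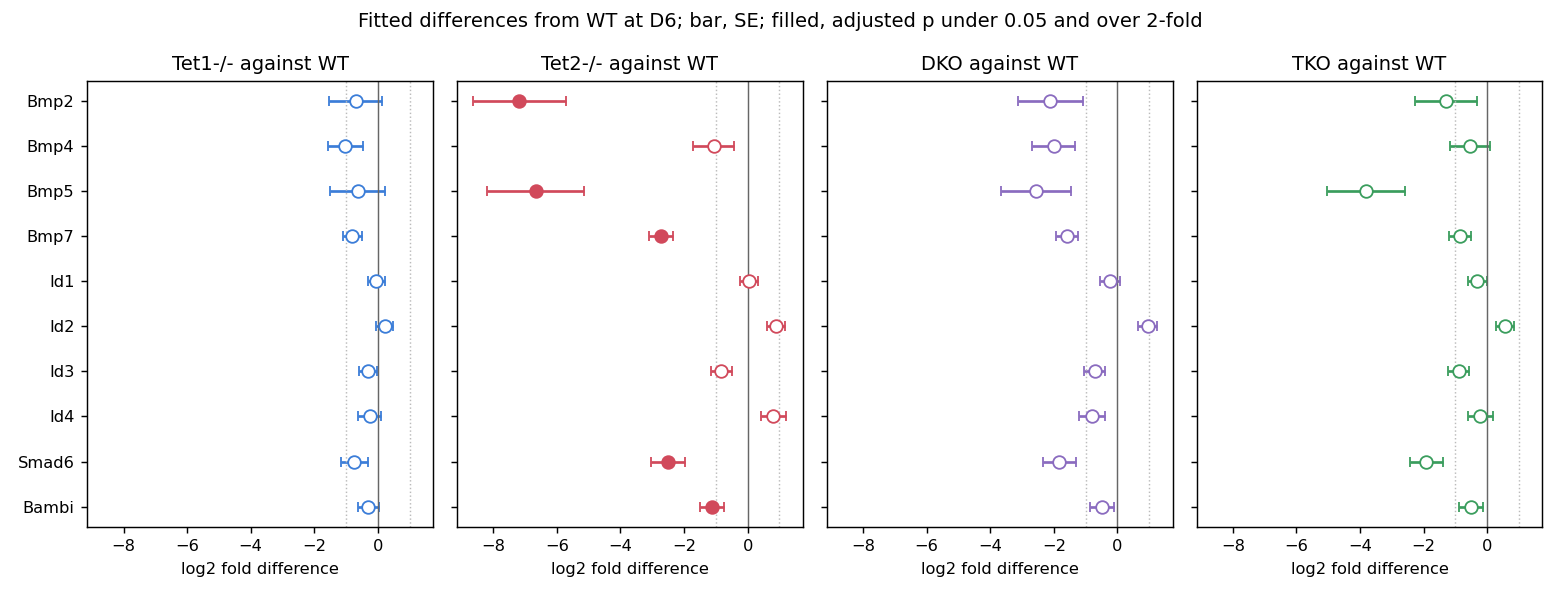
Fitted log2 fold differences of the 10 members between each knockout and WT at D6 (x axis, with the SE as a bar), one panel per knockout; filled points passed adjusted p under 0.05 and 2-fold, and dotted lines mark 2-fold. The 5 filled points, all in the Tet2-/- panel, run from -7.18 for Bmp2 to -1.12 for Bambi, and Id2 is to the right of 0 in all 4 panels.

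Bmp2, a ligand of developing mesoderm and extraembryonic tissue, was near 0 in all D0 libraries and higher at D6 in all 11 clones present on both days, an increase called in all genotypes but Tet2-/-. At D0 it was at 0, 0.329 and 0.216 CPM in WT clones O4.1, O4.2 and O4.13, and between 0 and 0.578 CPM in the other clones. At D6 the WT clones O4.1, O4.2 and O4.13 had 49.3, 11.5 and 55.8 CPM, and the Tet1-/- clones KO_2.1, KO_2.2 and KO_2.4 had 22.3, 44.3 and 5.1. Levels in DKO were 10.2 in clone DKO_5.11 and 7.82 in clone DKO_5.12. In TKO they were 2.74 in clone TKO_8.4 and 29.1 in clone TKO_8.12. Tet2-/- clones KO_3.10 and KO_3.11 had 0.346 and 0.174 CPM, below every other D6 library. The difference between Tet2-/- and WT was -7.18 ± 1.47 on the log2 scale (SE; adjusted p = 0.00854, edgeR), and Bmp2 was also lower in Tet2-/- than in Tet1-/- (-6.48, adjusted p = 0.0226), DKO (-5.07, adjusted p = 0.0398) and TKO (-5.89, adjusted p = 0.027). Without clone KO_3.10 or without KO_3.11 the Bmp2 difference from WT was -7.78 (adjusted p = 0.0704) and -6.81 (adjusted p = 0.0904), so the call needed both clones. The Tet1-/- comparison was lost without either of them or without clone KO_2.1 (adjusted p = 0.155, 0.215 and 0.0623), and the TKO comparison without either of them (adjusted p = 0.137 and 0.189) or without TKO_8.12 (-3.38, adjusted p = 0.21), and with only the compared groups in the fit (adjusted p = 0.0502). The DKO comparison was lost without KO_3.10 or KO_3.11 (adjusted p = 0.172 and 0.22), DKO_5.11 or DKO_5.12 (adjusted p = 0.112 and 0.117), WT clone O4.1 or O4.13 (adjusted p = 0.0502 and 0.0523) or KO_2.1 (adjusted p = 0.0548). The increase over D0 was 7.72 ± 1.08 in WT (log2, SE; adjusted p = 5.29e-06), 5.83 for Tet1-/-, 4.41 for DKO and 5.10 for TKO, the last of which lost its call without clone TKO_8.12 (2.59, adjusted p = 0.072). In Tet2-/- 2 counts at D0 and 17 at D6 gave a ratio of 7.73 with a 95% counting interval of 1.84 to 69, and the fit did not call it (2.77, adjusted p = 0.389).

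Bmp5, a ligand of mesenchyme, followed Bmp2. At D0 it was at 0 counts in 11 libraries and had 1 count in WT clone O4.13, and it could not be tested there. At D6 the level was 20.5, 3.49 and 15.5 CPM in WT clones O4.1, O4.2 and O4.13 and 6.53, 18.0 and 0.916 in Tet1-/- clones KO_2.1, KO_2.2 and KO_2.4. It was 3.12 and 1.33 in DKO clones DKO_5.11 and DKO_5.12, and 0.277 and 1.70 in TKO clones TKO_8.4 and TKO_8.12. In Tet2-/- it was 0.144 and 0.105, close to the level of 3 counts. Against WT, the difference in Tet2-/- was -6.67 ± 1.53 (log2, SE; adjusted p = 0.0125), and the ratio of the summed counts was 99.6 with a counting interval of 50.3 to 231. That call too was lost without clone KO_3.10 (adjusted p = 0.0927) or KO_3.11 (adjusted p = 0.108). Bmp5 was lower in Tet2-/- than in Tet1-/- as well (-6.04, adjusted p = 0.0335), but the call was lost without either Tet2-/- clone and without Tet1-/- clone KO_2.1 or KO_2.2 (adjusted p = 0.201, 0.249, 0.076 and 0.0633), and with only the compared groups in the fit (adjusted p = 0.0592). The differences from DKO (-4.11, adjusted p = 0.0989) and TKO (-2.86, adjusted p = 0.257) did not pass, and nor did that of TKO from WT (-3.82, adjusted p = 0.112), which was -4.28 without WT clone O4.2 (adjusted p = 0.0471). From D0 to D6 Bmp5 rose by a ratio of 907 in WT, from 1 to 990 counts with an interval of 162 to 35900. That ratio and the bounds that follow have different denominators, and the D6 means were 13.2 CPM in WT and 8.47 in Tet1-/-. Against a floor of 3 counts in each library, the rise was at least 67.8-fold in Tet1-/-, 15.8-fold in DKO and 7.93-fold in TKO, and the TKO call (adjusted p = 0.047) was lost in 10 of the 24 fits that left out one library (adjusted p up to 0.256, without TKO_8.12 at D6). The DKO call (adjusted p = 0.012) was lost without DKO_5.11 or DKO_5.12 at D0 (adjusted p = 0.0627 and 0.0566). In Tet2-/- both days were at or near that floor and the fit made no call (adjusted p = 0.361), although with the clone as a block it did (4.76, adjusted p = 0.0301).

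Bmp7, which is expressed in many epithelia, had measurable levels on both days. WT clones O4.1, O4.2 and O4.13 had 5.57, 4.12 and 5.01 CPM at D0 and 31.5, 21.3 and 26.5 at D6, an increase of 2.43 ± 0.298 (log2, SE; adjusted p = 1.2e-06). Tet1-/- clones KO_2.1, KO_2.3 and KO_2.4 had 8.24, 4.96 and 4.85 CPM at D0, and clones KO_2.1, KO_2.2 and KO_2.4 had 13.1, 22.5 and 9.88 at D6. This increase of 1.33 (adjusted p = 0.000602) was under 2-fold with the clone as a block (0.84, adjusted p = 0.0246) and without clone KO_2.2 at D6 (0.98, adjusted p = 0.00468). In Tet2-/- clones KO_3.10 and KO_3.11 the level was 5.21 and 4.47 CPM at D0 and 3.28 and 4.78 at D6, so the days overlapped (-0.26, adjusted p = 0.59). DKO clones DKO_5.11 and DKO_5.12 went from 5.95 and 5.76 CPM to 8.61 and 8.90 (0.58, adjusted p = 0.173). TKO was the genotype with a higher D0 level, 13.2 in clone TKO_8.4 and 8.74 in clone TKO_8.12, and had 10.7 and 18.1 at D6.

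Both Tet2-/- and TKO differed from WT in the change of Bmp7 on LIF withdrawal, by -2.69 ± 0.468 (adjusted p = 0.0032) and -2.04 ± 0.453 (adjusted p = 0.0157; log2, SE). The difference was -1.85 ± 0.46 in DKO (adjusted p = 0.372, and 0.0481 with DESeq2) and -1.10 ± 0.406 in Tet1-/- (adjusted p = 0.549). With edgeR these were the only called differences in change among the members, where 8.68% of all genes were called for Tet2-/- and 3.58% for TKO. For Tet1-/- and DKO no gene was called (0%), with 3 and 4 members at an unadjusted p under 0.05 (7.67% and 8.02% of all genes). DESeq2 called 0 members for Tet1-/-, 6 for Tet2-/-, 1 for DKO and 1 for TKO (0.0767%, 10.5%, 0.128% and 5.17%). Without WT clone O4.2 at D6 the called differences in change were 5 in Tet2-/- (Bmp4, Bmp7, Id3, Smad6 and Bambi) and 3 in TKO (Bmp7, Id1 and Id3). The share of all genes called was not computed for that fit, so these counts have no background beside them. The levels behind the 2 results differed. At D6 Bmp7 was lower in Tet2-/- than in WT (-2.73 ± 0.38, adjusted p = 0.0041), Tet1-/- (-1.93, adjusted p = 0.015) and TKO (-1.87, adjusted p = 0.0153), with -1.14 against DKO (adjusted p = 0.0672). In DKO it was below every WT clone at D6 (-1.59, adjusted p = 0.171, and 0.00221 with DESeq2). At D0 the clones of Tet2-/- and WT overlapped (-0.04, adjusted p = 0.931). In TKO the D0 level was higher than in WT (1.16 ± 0.252, adjusted p = 0.0187), one of 2 members called there, where 1.03% of all genes were called higher and 2.12% lower, and the D6 difference from WT did not pass (-0.87, adjusted p = 0.166). The difference from WT at D6 was -3.02 (adjusted p = 0.0663) without Tet2-/- clone KO_3.11. Without clone KO_3.10 or KO_3.11 the adjusted p against Tet1-/- was 0.134 and 0.167 and that against TKO was 0.114 and 0.108, and without TKO clone TKO_8.12 the latter was 0.0974. The TKO result at D0 was 0.83 (adjusted p = 0.0322) without clone TKO_8.4, and its adjusted p was 0.0599 without WT clone O4.2, 0.0649 without O4.13 and 0.139 with only the compared groups in the fit, where 0.0213% of all genes were called. The TKO difference in change was -1.70 (adjusted p = 0.0609) without clone TKO_8.4 at D6.

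Bmp4, the main BMP ligand of ESCs, was the ligand with the opposite course. WT clones O4.1, O4.2 and O4.13 had 67.3, 88.9 and 61.3 CPM at D0 and 45.6, 23.6 and 55.6 at D6 (-0.80, adjusted p = 0.105). In Tet1-/- it was 91.4, 92.1 and 93.5 at D0 in clones KO_2.1, KO_2.3 and KO_2.4, and 20.1, 30.1 and 11.5 at D6 in clones KO_2.1, KO_2.2 and KO_2.4. Tet2-/- clones KO_3.10 and KO_3.11 had the level of 135 and 141 CPM at D0 and 17.9 and 22.1 at D6. DKO clones DKO_5.11 and DKO_5.12 had 88.0 and 85.0 CPM at D0 and 12 and 8.66 at D6. TKO clones TKO_8.4 and TKO_8.12 had 145 and 100.2 CPM at D0 and 8.03 and 49.5 at D6. All 11 clones present on both days had less Bmp4 mRNA at D6, and the fall was called in each knockout. The log2 changes were -2.17 for Tet1-/-, -2.78 for Tet2-/-, -3.07 for DKO and -2.11 for TKO (adjusted p = 0.000335, 0.000653, 0.000185 and 0.00341, edgeR). The TKO change ran from -3.91 to -1.31 over the alternative settings. With edgeR no change was called different from that of WT, with -1.37 ± 0.605 for Tet1-/-, -1.98 ± 0.679 for Tet2-/-, -2.27 ± 0.689 for DKO and -1.31 ± 0.676 for TKO (adjusted p = 0.61, 0.053, 0.439 and 0.25). The Tet2-/- difference was called in 9 of 30 alternative settings, among them DESeq2 (adjusted p = 0.0419), no filter on low counts (adjusted p = 0.0394) and leaving out WT clone O4.2 at D6 (-2.27, adjusted p = 0.0216). At D0 Bmp4 was above WT in Tet2-/- (0.90 ± 0.16, adjusted p = 0.0107) and TKO (0.76 ± 0.161, adjusted p = 0.0169), in both under 2-fold. Without WT clone O4.2 the Tet2-/- value was 1.08 (adjusted p = 0.0104, edgeR). Without TKO clone TKO_8.12 the TKO value was 1.00, and over the alternative settings it ran from 0.46 to 1.00. No D6 difference of Bmp4 from WT passed the test, although the Tet2-/- clones (-1.07, adjusted p = 0.218) and the DKO clones (-2.01, adjusted p = 0.243) lay below all WT clones.

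**Figure D2:**
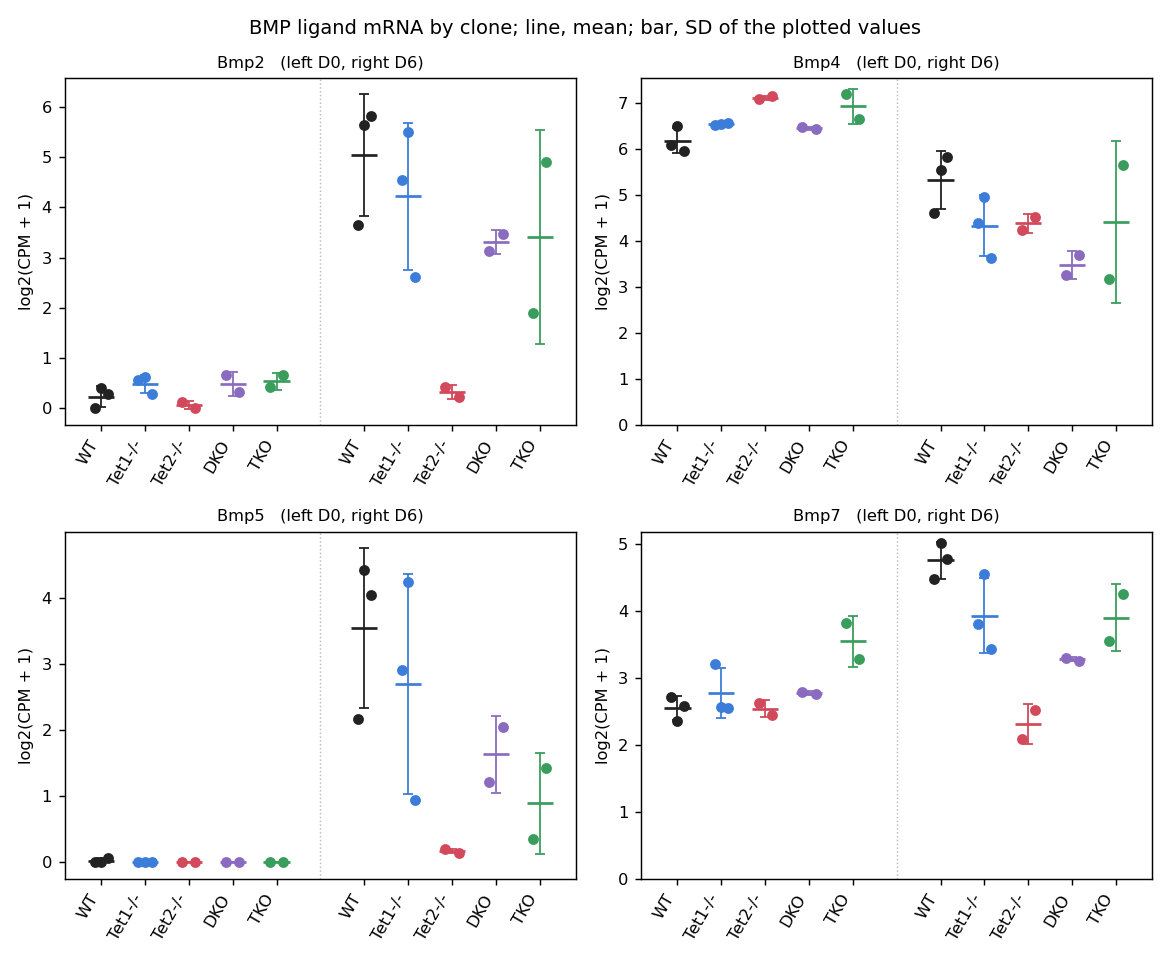
Level of each BMP ligand as log2(CPM + 1) in every clone (points) by genotype, D0 on the left and D6 on the right of each panel, with the mean (line) and SD (bar) of the plotted values. At D6 Bmp2 and Bmp5 are lowest in the Tet2-/- clones, Bmp7 in Tet2-/- stays at its D0 level, and Bmp4 is lower at D6 in every genotype mean.

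The Id genes did not follow the ligands as a set, and Id2 was the one member called between days in all 5 genotypes. Id2 in WT clones O4.1, O4.2 and O4.13 was at 6.06, 3.21 and 8.81 CPM at D0 and 37.6, 33.1 and 37.2 at D6. In Tet1-/- it was 4.90, 3.69 and 4.85 in clones KO_2.1, KO_2.3 and KO_2.4, then 61.7, 23.8 and 40.2 in clones KO_2.1, KO_2.2 and KO_2.4. Tet2-/- clones KO_3.10 and KO_3.11 rose from 4.31 and 3.42 CPM of Id2 to 60.2 and 74.5. DKO clones DKO_5.11 and DKO_5.12 had 8.31 and 5.56 CPM at D0 and 76.5 and 62.6 at D6, and TKO clones TKO_8.4 and TKO_8.12 had 12.1 and 4.53, then 49.4 and 55.8. No clone overlapped between days in any genotype, and the log2 increases of Id2 were 2.58 ± 0.361 for WT, 3.23 ± 0.372 for Tet1-/-, 4.1 ± 0.47 for Tet2-/-, 3.32 ± 0.45 for DKO and 2.66 ± 0.437 for TKO (SE; largest adjusted p = 7.38e-05). The increase in Tet2-/- exceeded that of WT by 1.55 ± 0.557 (adjusted p = 0.0631, edgeR). This difference was called in 6 of 30 alternative settings, among them DESeq2 and the clone as a block (1.47, adjusted p = 0.0426, edgeR). At D6 Id2 was above WT in Tet2-/- by 0.89 ± 0.291 (adjusted p = 0.043), under 2-fold. In DKO the difference was 0.95 (adjusted p = 0.225).

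The rise of Id3 passed both thresholds in WT, but with edgeR its change was called different from that of WT in no knockout (-0.47, -1.01, -0.91 and -0.86 for Tet1-/-, Tet2-/-, DKO and TKO, adjusted p = 0.788, 0.0726, 0.55 and 0.176). WT clones O4.1, O4.2 and O4.13 had 29.6, 30.4 and 30.3 CPM at D0, a narrow range, and 76.8, 35.9 and 80.5 at D6 (1.10 ± 0.241, adjusted p = 0.000598). Without clone O4.1 or O4.13 at D6 the increase was 0.96 and 0.93 (adjusted p = 0.00381 and 0.00464), just under 2-fold. Id3 in Tet1-/- clones KO_2.1, KO_2.2 and KO_2.4 at D6 was 49.5, 69.1 and 37.6 CPM, against 33.1 to 34.7 at D0 (0.63, adjusted p = 0.0287). The D6 levels of 32.0 and 41.3 in Tet2-/- clones KO_3.10 and KO_3.11, of 44.0 and 34.0 in DKO clones DKO_5.11 and DKO_5.12 and of 33.1 and 35.2 in TKO clones TKO_8.4 and TKO_8.12 were set against D0 ranges of 32.1 to 37.0, 34.0 to 34.6 and 23.5 to 34.6. None of these 3 changes passed (0.08, 0.18 and 0.23, smallest adjusted p = 0.525). The D6 difference of Id3 from WT was -0.83 in Tet2-/- (adjusted p = 0.0809) and -0.90 in TKO (adjusted p = 0.146), and without WT clone O4.2 it was -1.11 (adjusted p = 0.0104) and -1.19 (adjusted p = 0.0233).

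Id1 was between 35.0 and 87.7 CPM at D0 and between 44.2 and 102 at D6 in all clones. WT clones O4.1, O4.2 and O4.13 had 40.1, 37.4 and 50.7 at D0 and 83.5, 44.2 and 102 at D6 (0.84 ± 0.281, adjusted p = 0.0131), and without clone O4.2 at D6 the increase was 1.12 (adjusted p = 0.00105). In Tet2-/- clones KO_3.10 and KO_3.11 it went from 35.0 and 42.4 to 67.8 and 91.7 (1.04 ± 0.345, adjusted p = 0.0221), a call lost without clone KO_3.10 at D0 (0.93, adjusted p = 0.126), without KO_3.11 at D0 (1.19, adjusted p = 0.0641) and without KO_3.11 at D6 (0.80, adjusted p = 0.15). At D0 Id1 in TKO was 87.7 CPM in clone TKO_8.4 and 45.6 in clone TKO_8.12, and differed from WT by 0.64 (adjusted p = 0.153, edgeR). Without clone TKO_8.12 the difference was 1.04, and over the alternative settings it ran from 0.09 to 1.04. At D6 the Tet2-/- and WT clones overlapped in Id1, with a difference of 0.04 ± 0.297 (adjusted p = 0.925), and no neighbours in the order of the 5 genotype means at D6 differed beyond their SD.

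Id4, the least abundant Id mRNA in WT per length, had its highest genotype mean in Tet2-/- on both days. At D0 it was 3.60, 4.69 and 5.66 CPM in WT clones O4.1, O4.2 and O4.13 and 7.64 and 7.74 in Tet2-/- clones KO_3.10 and KO_3.11 (0.71 ± 0.206, adjusted p = 0.0493, under 2-fold). At D6 Id4 was 2.47, 6.93 and 3.44 in the same WT clones and 6.77 and 8.58 in the Tet2-/- clones (0.81, adjusted p = 0.129). Clone O4.2 was the WT clone with the most Id4 at D6, and without it the difference was 1.36 (adjusted p = 0.0103), while those from Tet1-/- (1.07, adjusted p = 0.0963) and TKO (1.02, adjusted p = 0.124) passed too (adjusted p = 0.0286 and 0.0434). The levels of 2.2 and 2.71 in DKO clones DKO_5.11 and DKO_5.12 lay below both Tet2-/- clones (1.62 ± 0.437, adjusted p = 0.0322). Leaving out either Tet2-/- clone or either DKO clone ended that call (adjusted p = 0.0971, 0.179, 0.16 and 0.143 without KO_3.10, KO_3.11, DKO_5.11 and DKO_5.12). Tet1-/- clones KO_2.1, KO_2.2 and KO_2.4 had 3.80, 2.54 and 4.48 CPM of Id4 at D6, and TKO clones TKO_8.4 and TKO_8.12 had 3.51 and 3.89.

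Levels of different genes were compared as CPM per kb of exon (GENCODE vM1). In WT at D0 the mean was 36.8 for Id1, 16.8 for Id3, 4.74 for Id2 and 2.80 for Id4, and at D6 it was 66.1, 36.0, 28.3 and 2.58. The share of Id2 in the summed Id level per kb rose from 7.54% ± 2.63 at D0 to 22.5% ± 6.15 at D6 in WT (SD, n = 3), and at D6 it was 25.8% ± 9.81 for Tet1-/- (SD, n = 3), 36.2% ± 1.27 for Tet2-/-, 40.9% ± 0.671 for DKO and 35.8% ± 1.57 for TKO (SD, n = 2 each). The share of Id3 at D6 was 26.5% ± 3.43 in WT (SD, n = 3) against 13.9% ± 0.0437 in Tet2-/-, 16.2% ± 0.371 in DKO and 16.5% ± 0.015 in TKO (SD, n = 2 each). The summed level itself was 133 ± 39.6 CPM per kb in WT (SD, n = 3) and 147 ± 27.0 in Tet2-/- (SD, n = 2) at D6, within the spread of the clones. These shares were not tested. On the same scale Bmp4 was the most abundant of the member ligands at D0 in WT (32.6, with 1.22 for Bmp7 and 0.0511 for Bmp2). Other ligands were not put on this scale. At D6 Bmp4 in WT was 18.7 beside 10.9 for Bmp2, 6.58 for Bmp7 and 3.27 for Bmp5. In Tet2-/- at D6 Bmp4 was 9, Bmp7 1.00, Bmp2 0.0731 and Bmp5 0.0309.

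Of the feedback inhibitors, Smad6 rose in WT from 7.51, 15.5 and 10.4 CPM in clones O4.1, O4.2 and O4.13 to 38.0, 16.8 and 58.8 (1.77 ± 0.379, adjusted p = 0.000457). Tet1-/- clones KO_2.1, KO_2.3 and KO_2.4 had 22.2, 21.8 and 19.2 at D0, above all WT clones (0.90, adjusted p = 0.141), and clones KO_2.1, KO_2.2 and KO_2.4 had 21.8, 33.6 and 12.8 at D6. Smad6 in Tet2-/- clones KO_3.10 and KO_3.11 was 6.96 and 6.66 at D0 and 5.90 and 7.71 at D6. DKO clones DKO_5.11 and DKO_5.12 had 9.06 and 10.8 CPM, then 10.9 and 10.4, and TKO clones TKO_8.4 and TKO_8.12 had 4.26 and 5.98, then 7.08 and 13.0. At D6 the Tet2-/- level was below every WT clone (-2.49 ± 0.534, adjusted p = 0.0101), a call lost without clone KO_3.10 (-2.31, adjusted p = 0.086) or KO_3.11 (-2.69, adjusted p = 0.0821). Against Tet1-/- it was -1.75 (adjusted p = 0.0557), and without WT clone O4.2 or KO_2.4 the adjusted p was 0.0221 and 0.0198. The change of Smad6 from D0 differed from that of WT by -1.77 (adjusted p = 0.0508), and DESeq2 called it (adjusted p = 0.0164). The DKO and TKO clones also lay below all WT clones (-1.82, adjusted p = 0.205, and -1.91, adjusted p = 0.0845), and DESeq2 called both (adjusted p = 0.0141 and 0.00314). Without WT clone O4.2 the TKO difference of Smad6 was -2.27 (adjusted p = 0.0183). At D0 Smad6 was lower in TKO than in WT (-1.12 ± 0.266, adjusted p = 0.0243). Without TKO clone TKO_8.4 this was -0.90 (adjusted p = 0.0377), without WT clone O4.2 it was -0.80 (adjusted p = 0.0568) and without O4.13 it was -1.17 (adjusted p = 0.0627), and with only the compared groups in the fit the adjusted p was 0.21.

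Bambi, the membrane inhibitor, was of the 5 members called in Tet2-/- against WT at D6 the nearest to both thresholds. WT clones O4.1, O4.2 and O4.13 had 13.7, 16.6 and 16.0 CPM at D0 and 29.5, 16.1 and 41.9 at D6 (0.92 ± 0.268, adjusted p = 0.00553), and without clone O4.2 at D6 the increase was 1.21 (adjusted p = 0.000173). Bambi in Tet2-/- clones KO_3.10 and KO_3.11 was 14.0 and 12.4 at D0 and 13.0 and 14.2 at D6 (0.05, adjusted p = 0.924). The D6 difference from WT was -1.12 ± 0.381 (adjusted p = 0.0488). It lost its call in 11 of 19 alternative settings, including without WT clone O4.13 (-0.75, adjusted p = 0.169), O4.1 (adjusted p = 0.1), KO_3.10 (adjusted p = 0.208) or KO_3.11 (adjusted p = 0.182), Tet1-/- clone KO_2.1 (adjusted p = 0.0703) and DKO clone DKO_5.12 or DKO_5.11 (adjusted p = 0.0686 and 0.0709). Tet1-/- clones KO_2.1, KO_2.2 and KO_2.4 had 23.6, 31.4 and 16.1 CPM of Bambi at D6, DKO clones DKO_5.11 and DKO_5.12 had 21.5 and 20.2, and TKO clones TKO_8.4 and TKO_8.12 had 15.4 and 25.5.

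**Figure D3:**
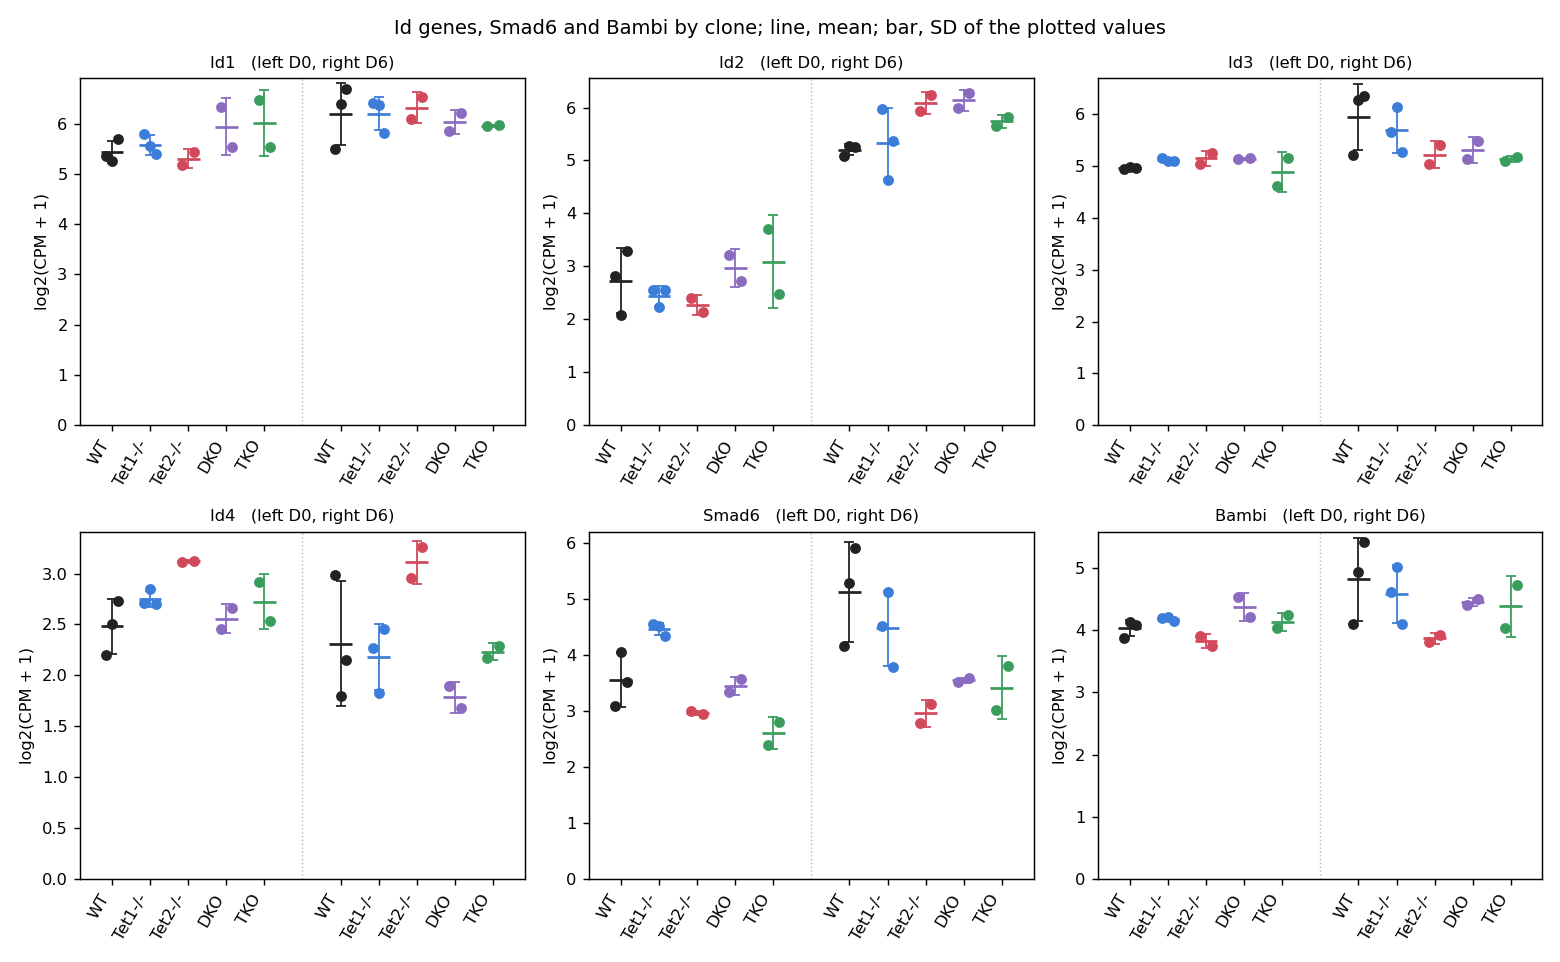
Level of each Id gene, Smad6 and Bambi as log2(CPM + 1) in every clone (points) by genotype, D0 on the left and D6 on the right of each panel, with the mean (line) and SD (bar) of the plotted values. Id2 separates by day in all genotypes. For Id3, Smad6 and Bambi the WT clones spread widely at D6, and the Tet2-/- and the DKO clones lie near their D0 levels.

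Against WT at D0, edgeR called no member in Tet1-/- (0.00692% of all genes), Tet2-/- (3.19%) or DKO (0.0346%), and 2 of the 9 members tested were called in TKO. At an unadjusted p under 0.05, 2, 3 and 1 members passed in the first 3 comparisons (12.6%, 29.2% and 14.4% of all genes), and DESeq2 called none (0.346%, 3.47% and 0.768%). At D6, 3 members were lower in Tet2-/- than in Tet1-/- (4.48% of all genes), 1 was lower and 1 higher than in DKO (6.37% and 3.13%), and 2 were lower than in TKO (6.01%). DESeq2 called 5 members against Tet1-/- (9.17% of all genes) and 4 against DKO (11.4%). Bmp2 is the member that was lower in Tet2-/- in all 4 comparisons. At D6 the clones did not overlap those of WT for 0 of the 10 members in Tet1-/- (15.9% of all genes), 7 in Tet2-/- (63.1%), 6 in DKO (37.3%) and 5 in TKO (36.3%).

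**Figure D4:**
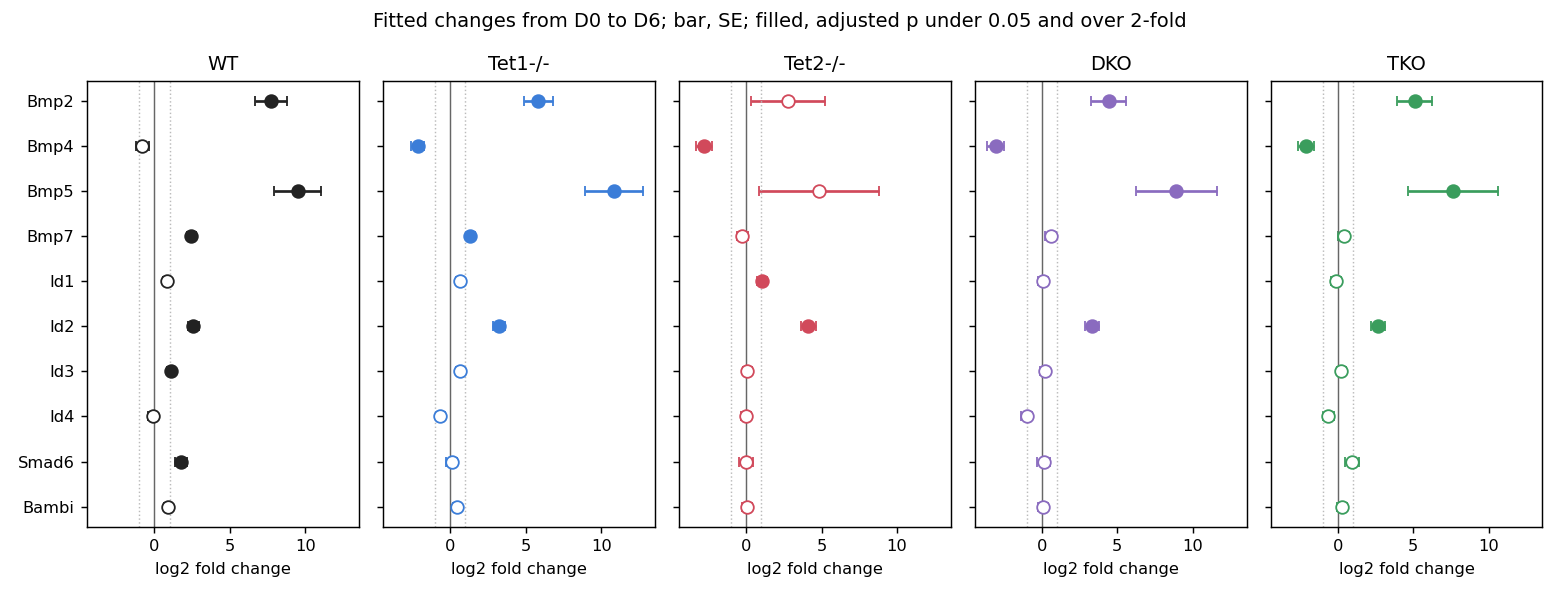
Fitted log2 fold changes of the 10 members from D0 to D6 in each genotype (x axis, with the SE as a bar); filled points passed adjusted p under 0.05 and 2-fold. Id2 is filled in all 5 panels and Bmp4 in the 4 knockouts, whereas Bmp2 and Bmp5 are open in Tet2-/-; the fitted Bmp5 values rest on D0 counts of 0 or 1.

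The rest of the pathway was read from lists chosen with earlier results of these data known. Of 13 other BMP target genes tested, 7 were lower in Tet2-/- than in WT at D6 and none was higher, with a median of -1.87, where 9.45% of all genes were lower and 4.81% higher. The medians of this list were -0.62 for Tet1-/-, -1.46 for DKO and -1.21 for TKO, in which no gene was called, and the summed level at D6 was 99.8 to 128 CPM in Tet2-/-, 95.9 to 131 in DKO, 86.6 to 174.5 in TKO, 118 to 382 in Tet1-/- and 192 to 627 in WT. They included Hand1 (-7.33, 0.796 ± 0.107 against 127 ± 90.9 CPM), a factor of extraembryonic and cardiac mesoderm, Tbx2 (-6.76) and Tbx20 (-5.60), both T-box factors of the heart. Of 12 extracellular antagonists, 5 were lower (median -1.53), among them Bmper (-6.55), Cer1 (-5.85) and Nog (-4.07), which encodes the BMP trap Noggin. Of 6 other ligands tested, 2 were higher and 2 lower (median -0.75). Gdf3, a ligand of the TGF-beta family made by pluripotent cells, was 123 ± 8.89 CPM in Tet2-/- and 27.8 ± 16.5 in WT (SD, n = 2 and 3). This was a difference of 2.12 (adjusted p = 0.0188, edgeR). Gdf7 was higher (1.90) at 0.252 against 0.0637 CPM, with the WT mean below the level of 3 counts. Gdf6 was lower (-3.01). The 10 receptors and co-receptors had a median of -0.34 and 1 called member, the co-receptor Rgma (-2.02, adjusted p = 0.0111). None of the 9 Smad transducers and turnover genes and none of the 3 E protein genes was called. In WT from D0 to D6, 6 of 10 receptors rose and none fell, 8 of 12 antagonists rose and none fell, 8 of 12 other targets rose and 1 fell, and 3 of 9 Smad and turnover genes rose and 1 fell, where 20.7% of all genes rose and 13.3% fell. Smad1 rose (1.84, from 19.7 ± 1.82 to 70.7 ± 28.0 CPM; SD, n = 3) and Smad7, another inhibitory Smad, fell (-1.38, from 139 ± 12.8 to 53.6 ± 6.05 CPM; SD, n = 3). In Tet2-/- the same 4 lists had 4 higher and 1 lower, 4 higher and 1 lower, 4 higher and 1 lower, and 2 higher and none lower (12.7% and 6.44% of all genes). The change of Smad1 was smaller than in WT in Tet2-/- (-1.20 ± 0.398, adjusted p = 0.0472) and in TKO (-1.59 ± 0.399, adjusted p = 0.0261).

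Markers of other cell types were read in the same D6 libraries. The 6 streak and mesoderm markers summed to 235 to 670 CPM in WT at D6 and 66.0 to 101 in Tet2-/-, and 5 of the 6 were called lower in Tet2-/-. The 7 mesenchyme and smooth muscle markers summed to 305 to 722 CPM in WT and 105 to 110 in Tet2-/-, where Hand2 was at 0, and the 6 trophectoderm markers to 617 to 1351 and 131 to 135, with Elf5 at 0; 5 and 4 of these were called lower. The 6 endoderm markers summed to 56.6 to 260 CPM in WT and 9.8 to 11.3 in Tet2-/-, with 4 called lower. The 6 neuroectoderm markers summed to 241 to 473 and 238 to 275, and 2 of the 5 tested were called higher in Tet2-/-, Pax6 (2.84, adjusted p = 0.012) and Sox1 (2.39, adjusted p = 0.0195). The 8 pluripotency markers, which include Tbx3, also a BMP target, summed to 761 to 1575 CPM in WT and 1997 to 2189 in Tet2-/-, where Pou5f1 was called higher (1.18, adjusted p = 0.0128) and Dppa3 lower (-2.83, adjusted p = 0.0404). In the other knockouts no marker was called against WT at D6. The mesenchyme and smooth muscle sum was 323 to 637 CPM in TKO, 449 to 575 in DKO and 323 to 506 in Tet1-/-, all within the WT range. Trophectoderm markers summed to 607 to 851, 789 to 976 and 498 to 1050 CPM in the same order. Neuroectoderm markers summed to 162 to 298, 244 to 312 and 241 to 286 CPM. The endoderm sum was 17.0 to 17.1 CPM in TKO (median difference from WT -3.18, against -3.57 in Tet2-/-), 38.7 to 57.6 in DKO and 44.3 to 152 in Tet1-/-. The streak and mesoderm sum was 153 to 366 CPM in TKO, 240 to 379 in DKO and 271 to 928 in Tet1-/-, and the pluripotency sum was 1598 to 1611, 1163 to 1182 and 887 to 1524 in the same order. Their part in the levels of the members was not tested, and in bulk libraries fewer cells of a type and less RNA per cell cannot be told apart. Of the 12 D6 libraries, the 2 with the lowest mesoderm sums, which make up the Tet2-/- group, had the least Bmp2 and Bmp5 mRNA. For Smad6, TKO clone TKO_8.4 (7.08 CPM) was below Tet2-/- clone KO_3.11 (7.71 CPM). WT clone O4.2 and DKO clone DKO_5.12 had sums of 235 and 240 CPM, with 21.3 and 8.90 CPM of Bmp7.

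**Figure D5:**
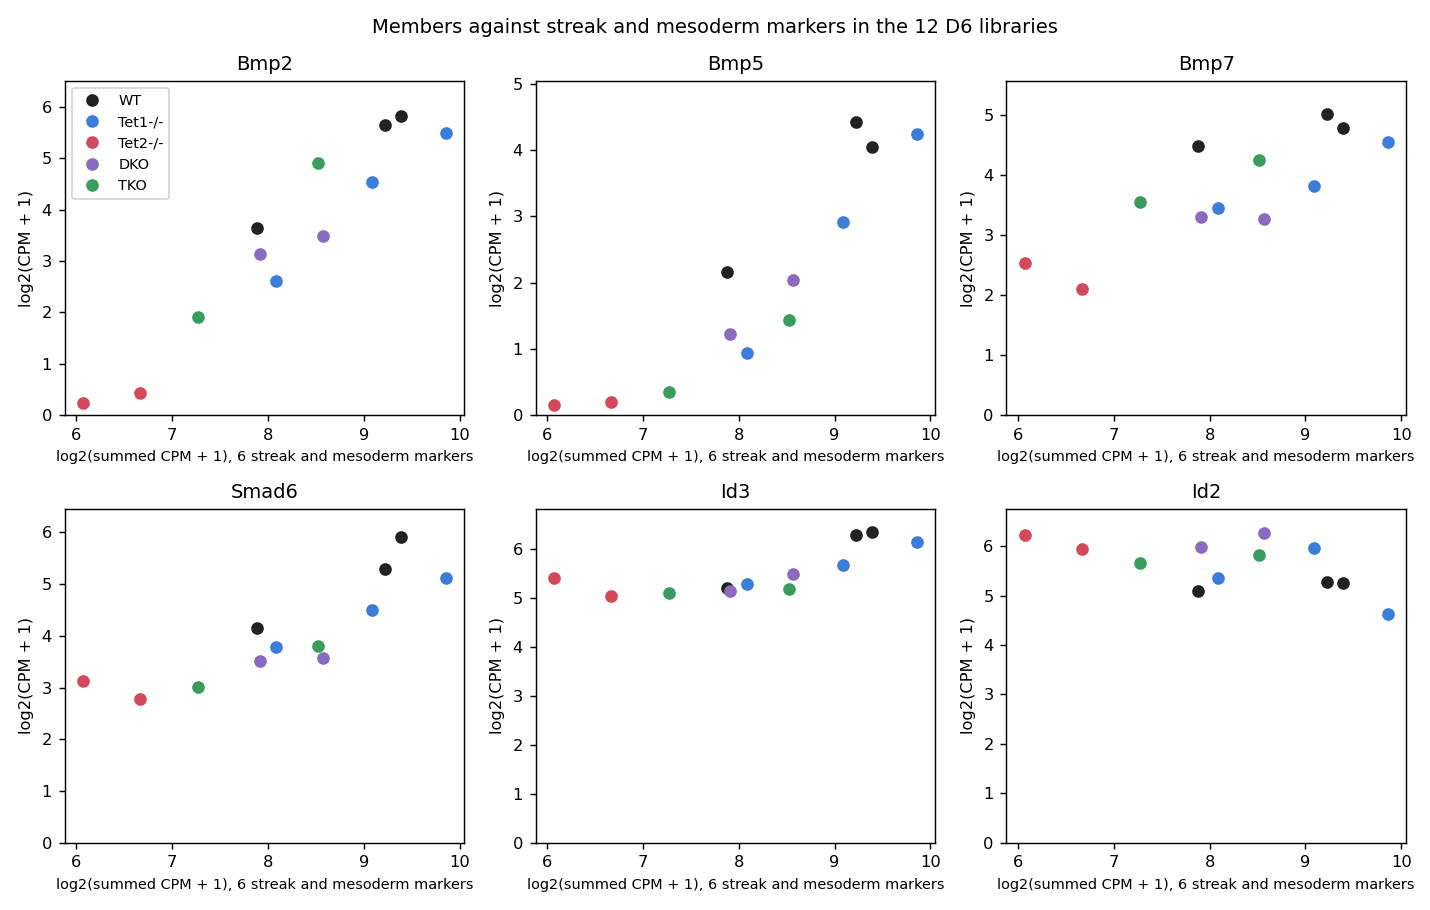
Level of 6 members as log2(CPM + 1) on the y axis against the summed CPM of 6 streak and mesoderm markers on the x axis (log2 scale) in the 12 D6 libraries, coloured by genotype. Both Tet2-/- clones (66.0 and 101 CPM of markers) sit at the left, and WT clone O4.2 (235 CPM) lies to the left of the other two WT clones (596 and 670 CPM).

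Across the 12 D6 libraries, which share genotypes and clones, the Pearson correlation of log2(CPM + 1) was 0.95 for Bmp5 and Smad6, 0.92 for Bmp2 and Bmp7, 0.92 for Bmp2 and Bambi, and 0.91 for both Bmp5 and Smad6 with Id3. Id2 and Id4 went the other way, Id2 with -0.71 against Bmp7 and -0.66 against Smad6, and Id4 with -0.67 against Bmp2 and -0.66 against Bambi. Id1 had 0.10 with Bmp7 and 0.24 with Bmp2. Over all 24 libraries, which hold both days, the genes most like each member were sought among 13077 genes with a mean of at least 1 CPM. Msx2, 5730457N03Rik and Klhl6 were nearest to Bmp2 (0.986 to 0.989), Kcnj5, Col23a1 and Prdm6 to Bmp5 (0.986 to 0.992), and Heatr5b, Tbx3 and Wscd2 to Bmp4 (0.929 to 0.942). For Bmp7 they were Hdac5, Rftn1 and Sept8 (0.909 to 0.924), for Id1 Mmp15, Ak3 and Nrip1 (0.789 to 0.827), for Id2 Mfap3l, Dusp5 and Fermt1 (0.960 to 0.962), for Id3 Hand2, Tbx20 and Glis1 (0.910 to 0.930) and for Id4 Ppap2b, E2f1 and Zfp710 (0.859 to 0.888). Smad6 was most like Pknox2, Mcfd2 and Kdr (0.854 to 0.873) and Bambi most like Ext1, Disp1 and Tiam2 (0.881 to 0.894).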

How the data were processed

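Poly(A) RNA with ERCC spike-ins had been sequenced in pairs and, by the submitters' processing notes and the methods of the study, aligned to mm9 with STAR 2.5.1. The authors deposited 1 table of raw counts per day, with RefSeq rows named by symbol; the tables carry the name of featureCounts, whose version and strand setting were not given in the sources used here. The first row per symbol was used (31928 rows and 22926 symbols per table). No ERCC rows were used, so the spike-in scaling of the authors was not repeated. Genes were kept by filterByExpr (minimum count 10), scaled by TMM and tested with edgeR 4.0.16 (R 4.3.3) in 1 fit per day, or of all 24 libraries between days. Adjustment was by Benjamini-Hochberg over all genes tested, and DESeq2 1.42.0 was an alternative. The SE of a fitted difference was its absolute value over the square root of the F statistic of edgeR's test, not a separate estimate. The script was tested on simulated data.

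The members, gene lists and tests were chosen with earlier results of these data known. Genes named besides the members were Tet1, Tet2 and Tet3, at most the 3 called genes of each list with the largest change, and the 3 most similar genes per member, with Elf5 named after its values were seen. Library totals were 21729346 to 37290208 at D0 and 18400463 to 34219640 at D6; intervals and floors cover counting error only. Clones present on both days pair by label: their deviations from the group means correlated by 0.0813 to 0.193 in 11 pairs. In Tet2-/-, DKO and TKO the deviations mirror each other, so both clones give the same value and the pairs are not all independent. Clone DKO_5.12 was read from a label without the point.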

Additional observations from a re-analysis of the deposited data

Results flagged for a closer look

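The change of Bmp7 on LIF withdrawal differed between genotypes by a test of the difference itself. It was -2.69 (log2, adjusted p = 0.0032, edgeR) in Tet2-/- against WT, over alternatives with an adjusted p of 1.82e-06 to 0.0296, and -2.04 (adjusted p = 0.0157) in TKO against WT, over alternatives with 0.000584 to 0.0609. Bmp7 was higher at D6 in 3 of 3 WT clones and in 1 of 2 clones of both Tet2-/- and TKO. These were KO_3.11, from 4.47 to 4.78 CPM, and TKO_8.12, from 8.74 to 18.1 CPM. The change in DKO differed from that of WT by -1.85, which did not pass (adjusted p = 0.372, edgeR).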

How the results depend on the processing

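Of 196 results of single members, the 66 called with edgeR or under any alternative were followed, and none of these reversed: 1520 values kept their side of the thresholds, 75 lost a call and 66 gained one. DESeq2 called 2 members in DKO and 2 in TKO against WT at D6 (1.20% and 3.05% of all genes), 5 in Tet2-/- against Tet1-/- and 4 against DKO (9.17% and 11.4%), and, for the change on LIF withdrawal against WT, 6 in Tet2-/- and 1 in DKO (10.5% and 0.128%). With only the compared groups in the fit, 0 were called in TKO against WT at D0, 4 in Tet2-/- against DKO and 1 against TKO at D6 (0.0213%, 16.6% and 6.28% of all genes). For the change in Tet2-/- against WT, no filter on low counts gave 3 and the clone as a replicate block gave 2 (6.36% and 10.3%). That block moved no other count by over 1.5 times; by gene it ended the call of Bmp7 in Tet1-/- and added those of Bmp5 and of the Id2 difference in Tet2-/-. Some title numbers mark different clones on each day (in WT, Tet1-/- and DKO), and libraries with the same number correlated from -0.377 to 0.312 within a day, so they are numbers only; as a replicate block they ended the Bambi call in Tet2-/- (-1.02) and added Bmp7 in Tet2-/- against DKO (-1.19). The cause was not tested in any of these. For the fits that left out a library the share of all genes called was not computed. Leaving out each library in turn gave, against WT at D0, 0 to 1 members in Tet2-/- and 0 to 4 in TKO; at D6, 0 to 7 in Tet2-/- and 0 to 3 in TKO; for Tet2-/- at D6, 0 to 5 against Tet1-/-, 0 to 4 against DKO and 0 to 3 against TKO; from D0 to D6, 5 to 8 for WT, 4 to 5 for Tet1-/-, 2 to 3 for Tet2-/-, 3 to 4 for DKO and 2 to 4 for TKO; and for the change against WT, 1 to 5 in Tet2-/- and 0 to 3 in TKO. For Tet2-/- against WT at D6, 7 came without WT clone O4.2, 1 without Tet2-/- clone KO_3.10 and 0 without KO_3.11; an arm left with 1 clone is assumed to vary like the others. With library totals in place of TMM the median of all genes between days was 0.139 to 0.207 (log2) above 0, and the share of calls that were higher moved from 63.6% to 75.1% in DKO and from 66% to 76.7% in TKO; Bambi in WT then passed 2-fold (1.07). With 2 clones a group, 3 counts are 0.0814 to 0.151 CPM, which limits Bmp2 and Bmp5 at D0 and in Tet2-/-.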

Other observations

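Clones of one knockout differed in several members. At D6 TKO clone TKO_8.4 had 2.74 CPM of Bmp2 and 8.03 of Bmp4, and clone TKO_8.12 had 29.1 and 49.5, with summed streak and mesoderm markers of 153 and 366 CPM and Tet1 mRNA at 249 and 57.7 CPM. With both clones the change of Bmp4 on LIF withdrawal in TKO differed from that in WT by -1.31 (adjusted p = 0.25, edgeR). Without clone TKO_8.12 at D6 this difference was -3.12, and over the alternative settings it ran from -3.12 to -0.51. Among the Tet1-/- clones, KO_2.4 had the least Bmp2, Bmp5 and Smad6 at D6, with 5.1, 0.916 and 12.8 CPM, and KO_2.2 the most, with 44.3, 18.0 and 33.6 CPM. Their summed streak and mesoderm markers were 271 and 928 CPM.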
